A study of Homo sapiens with 12 samples.

Results

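THP-1 cells exposed for 8 h to 50 µM chlorquinaldol were compared with THP-1 cells exposed for 8 h to 1 µg/mL 3'-3'-cGAMP, which the study used as its positive control for antiviral signalling. The comparison takes the 3 libraries of each treatment, chosen by their labelled treatment and by no measured value, so it rests on 6 of the 12 libraries of the series, and it covers every gene that could be tested. The other libraries are 3 of cells given 20 µM chlorquinaldol, which entered the choice of genes to test, the scaling and the shared estimate of the spread between replicates but not the difference itself, and 3 of untreated cells, which are set beside both treatments. THP-1 is an established human monocytic leukemia line, and the labels name no genetic change in any group. The submitters describe the untreated cells as 0 µM chlorquinaldol for 8 h, and no vehicle is named for any group. RNA was selected with oligo(dT) beads and sequenced, and levels are CPM, counts scaled to the size of the library. Whether replicates came from separate cultures is not stated, so p-values measure the spread between these libraries, which may be technical.

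A ligand of STING, 3'-3'-cGAMP is a cyclic dinucleotide. STING is an endoplasmic reticulum adaptor that recruits the kinase TBK1, which in turn activates the transcription factor IRF3. IRF3 switches on interferon beta, and secreted interferon acts through its receptor on interferon-stimulated genes, whose products restrict viruses. Chlorquinaldol is a chlorinated hydroxyquinoline antiseptic, and compounds of this class bind metal ions. Cells answer to metals through MTF1, which drives metallothionein genes, and to oxidants through NRF2, which drives heme oxygenase, ferritin and glutathione genes.

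The 6 libraries were of like depth, with 19011578 to 19222607 gene-assigned counts after chlorquinaldol and 18914542 to 18979948 after cGAMP. Pearson correlations of log2 CPM between libraries were 0.9856 to 0.9887 within the chlorquinaldol group, 0.9894 to 0.991 within the cGAMP group and 0.9037 to 0.9133 between these groups. Correlations with the untreated libraries were 0.9045 to 0.9166 for chlorquinaldol and 0.9698 to 0.9727 for cGAMP. The median SD of a gene between replicates was 0.156 on the log2 scale after chlorquinaldol and 0.123 after cGAMP. Myeloid genes such as the integrin gene ITGB2 and the transcription factor gene SPI1 were present in both groups, at 1831 and 224 CPM after chlorquinaldol and 1064 and 173 CPM after cGAMP. All 24 monocytic genes listed were tested: 10 were called higher after chlorquinaldol, ITGB2 and SPI1 among them, and 14 lower (median log2 −0.89). Their summed level was 4724 to 5315 CPM after chlorquinaldol and 5815 to 6445 CPM after cGAMP. Markers of other lineages were low, with summed levels of 13.2 to 17.2 CPM after chlorquinaldol and 10.6 to 12.1 CPM after cGAMP for T and NK cells, 0.290 to 0.663 CPM after chlorquinaldol and 0.984 to 1.36 CPM after cGAMP for epithelium, 2.51 to 3.01 CPM after chlorquinaldol and 2.28 to 2.78 CPM after cGAMP for fibroblasts, and 0.870 to 1.37 CPM after chlorquinaldol and 0.587 to 1.08 CPM after cGAMP for erythroid and megakaryocyte cells. B cell markers summed to 10.1 to 10.9 CPM after chlorquinaldol and 51.9 to 72.1 CPM after cGAMP, where PAX5 made up most of the sum. The other 2 of the 3 tested B cell markers were called higher after chlorquinaldol, and MS4A1 and IGHM were at 0 CPM in both groups.

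The promoters of genes that stood on opposite sides of the comparison are shown because they carry the letters of 2 known response elements. Sequences are from RefSeq on GRCh38.p14, read 5′ to 3′ on the strand of the gene and lying before the start that RefSeq annotates, which can differ from the GENCODE 29 positions given below for genes. Capitals in IFIT1, ISG15 and CXCL10, all far lower after chlorquinaldol than after cGAMP, mark matches to the interferon-stimulated response element, the letters GAAA, NN and GAAA in a row with N for any base. The stretches are chr10:89392433-89392552 (plus strand), chr1:1013307-1013426 (plus strand) and chr4:76023628-76023747 (minus strand). The matches in ISG15 overlap each other.
IFIT1: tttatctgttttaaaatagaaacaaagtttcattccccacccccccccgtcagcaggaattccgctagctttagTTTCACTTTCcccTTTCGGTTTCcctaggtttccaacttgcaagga
ISG15: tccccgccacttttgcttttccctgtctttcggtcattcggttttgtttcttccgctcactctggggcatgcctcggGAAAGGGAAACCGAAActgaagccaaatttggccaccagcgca
CXCL10: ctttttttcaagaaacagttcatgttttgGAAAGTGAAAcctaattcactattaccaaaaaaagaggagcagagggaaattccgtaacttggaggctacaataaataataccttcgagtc

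Capitals in the metallothionein genes MT2A and MT1X and in the zinc exporter gene SLC30A1, all far higher after chlorquinaldol than after cGAMP, mark matches to the metal response element TGCACNC or TGCGCNC. The stretches are chr16:56608414-56608543 and chr16:56682300-56682429 on the plus strand and chr1:211579182-211579301 on the minus strand.
MT2A: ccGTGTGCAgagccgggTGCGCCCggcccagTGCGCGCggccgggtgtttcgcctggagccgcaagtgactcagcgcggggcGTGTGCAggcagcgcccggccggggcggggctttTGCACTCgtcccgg
MT1X: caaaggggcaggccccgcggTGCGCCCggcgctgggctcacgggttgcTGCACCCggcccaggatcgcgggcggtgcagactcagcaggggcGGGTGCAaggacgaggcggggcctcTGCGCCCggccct
SLC30A1: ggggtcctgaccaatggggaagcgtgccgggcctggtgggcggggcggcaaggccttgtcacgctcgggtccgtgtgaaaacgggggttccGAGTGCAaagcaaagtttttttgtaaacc

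Both motifs, and those of the antioxidant and hypoxia response elements and the AP-1 site, were searched on both strands of the RefSeq promoter window of each gene with an entry. The interferon element was found in 27 of 42 promoters of the interferon-stimulated genes listed (64.3%), 2.97% of the 11490 promoters of tested genes and 3.65% of all 27305 promoters. It was found in 2.03% of the promoters of genes called at least 2-fold higher after chlorquinaldol and in 7.55% of those called at least 2-fold lower. The metal element is shorter and commoner: it was in all 4 metallothionein promoters that had an entry, but also in 38.4% of promoters of tested genes and 29.3% of all promoters. It was in 40.2% of the promoters of genes called at least 2-fold higher after chlorquinaldol and 32.1% of those called at least 2-fold lower, so among the higher genes its share was near that of all tested genes. A match is a description of these letters in this window, not evidence of a bound site.

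Gene by gene, the treatments left different transcriptomes. Of 16628 tested genes, 5318 (32.0%) were called higher after chlorquinaldol than after cGAMP and 5768 (34.7%) lower, at an adjusted p below 0.05 (edgeR quasi-likelihood test, Benjamini-Hochberg adjustment over all tested genes). Genes that were also at least 2-fold apart numbered 2348 higher (14.1%) and 2183 lower (13.1%), and those at least 16-fold apart 179 higher and 91 lower. The median log2 difference over all tested genes was −0.04 and its median size was 0.56. Against untreated cells in the same model, 5352 genes were called higher and 5771 lower after chlorquinaldol. After cGAMP, 1921 were called higher and 1954 lower than in untreated cells. Both of these comparisons share the untreated libraries. In 33.1% of tested genes every chlorquinaldol library lay above every cGAMP library, and in 36.3% below. Together the libraries of the groups did not overlap in 69.4% of genes. With so many genes called, the counts given for each gene list below are to be read against 32.0% higher and 34.7% lower.

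Calls were more frequent among protein-coding genes, of which 34.1% were higher and 37.2% lower, than among long noncoding genes (24.2% and 25.2%) and pseudogenes (18.4% and 25.1%). They were also more frequent at higher levels: below 1 CPM 20.5% of genes were higher and 19.6% lower, and above 100 CPM 39.2% were higher and 38.1% lower. For 8871 genes (53.3%) the 95% interval of the difference lay within a 2-fold range in either direction. With 3 libraries against 3, an exact test of a single gene could not go below 0.1, so the calls depend on the spread pooled over genes. All differences are relative to the bulk of genes, and in bulk RNA fewer cells expressing a gene and less RNA per cell cannot be told apart.

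**Figure D1:**
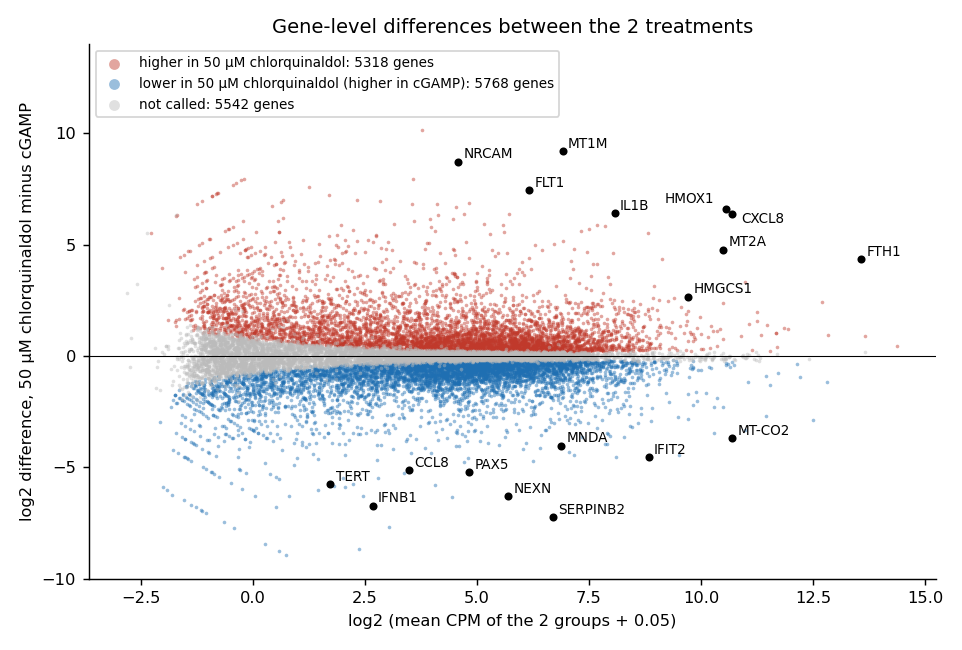
Each point is 1 of the 16628 tested genes, with the log2 of the mean CPM of both groups (plus 0.05) on the horizontal axis and the log2 difference, 50 µM chlorquinaldol minus cGAMP, on the vertical axis; red genes were called higher (5318), blue genes lower (5768), and grey genes were not called (5542). Metallothionein, ferritin, heme oxygenase and inflammatory genes lie far above 0, and IFNB1, IFIT2, NEXN and SERPINB2 far below.

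**Figure D2:**
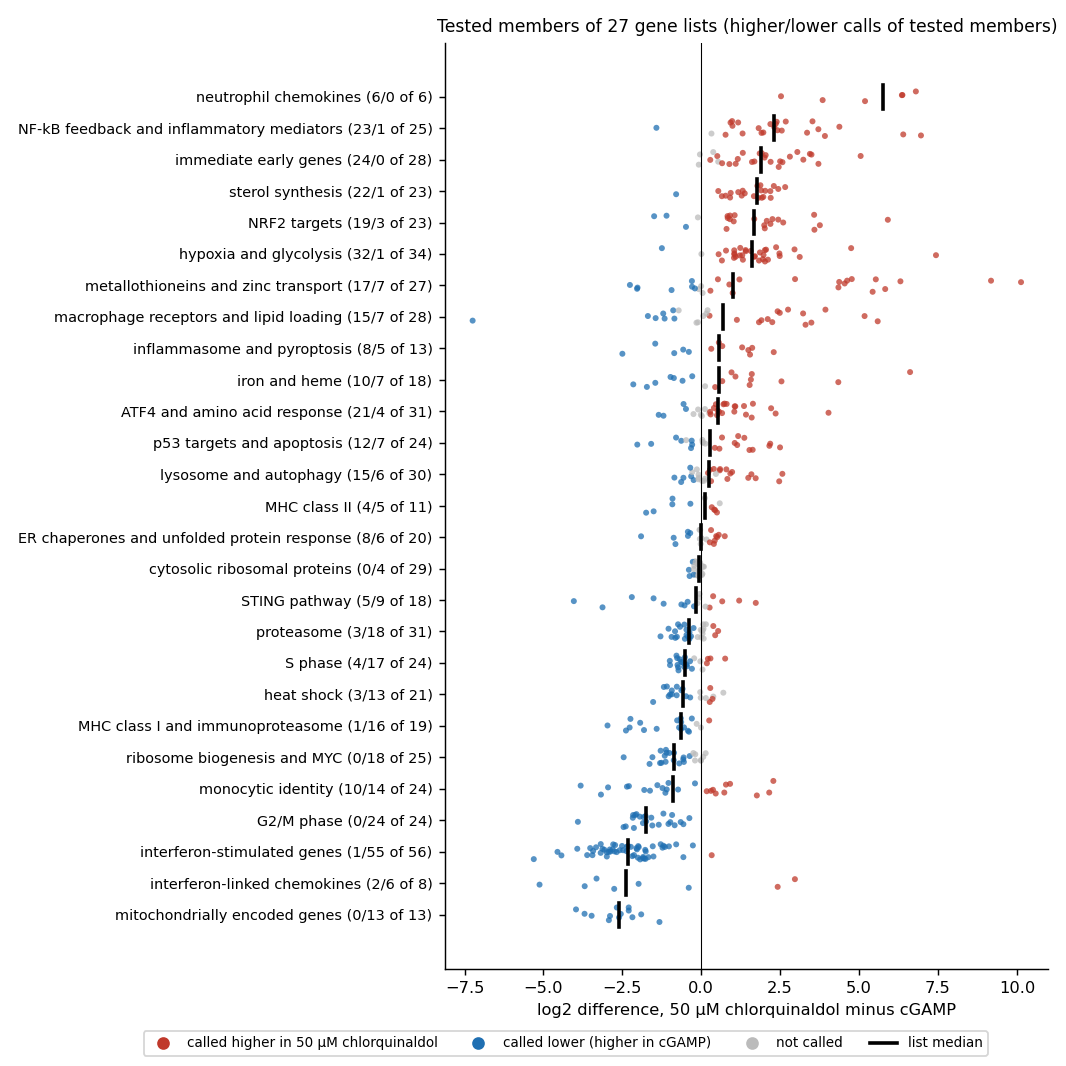
Points are tested members of 27 gene lists, placed by their log2 difference, 50 µM chlorquinaldol minus cGAMP, and coloured by call, with black bars at the list medians. Numbers beside each list are members called higher and lower, of those tested. Medians of the lists shown run from 5.77 for neutrophil chemokines to −2.61 for mitochondrially encoded genes. The interferon list (2 tested, median −7.10) and the marker lists of other lineages are left out.

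Interferon genes themselves were nearly silent after chlorquinaldol. IFNB1, which encodes interferon beta (ENSG00000171855, chromosome 9, 21077105 to 21077963), had 6 counts over the 3 chlorquinaldol libraries and 708 over the 3 cGAMP libraries, a ratio of 0.00889 (95% interval from counting error 0.00325 to 0.0195). Untreated libraries held 3 counts. The type III interferon gene IFNL1 had 0 counts after chlorquinaldol and 66 after cGAMP, a ratio with an upper 95% limit from counting error of 0.0603. Over the 21 interferon genes listed, the sums were 7 counts after chlorquinaldol, 781 after cGAMP and 3 in untreated cells, and only IFNB1 and IFNL1 had enough counts to be tested.

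Interferon-stimulated genes were lower after chlorquinaldol almost without exception: 55 of the 56 listed were called lower and 1, SP100, higher, with a median log2 difference of −2.33. In 54 of them every chlorquinaldol library lay below every cGAMP library, where 36.3% of tested genes did, and GBP2 was the one whose groups overlapped. IFIT1, which encodes a protein that binds foreign RNA caps (ENSG00000185745, chromosome 10, 89392546 to 89406486), had 51.7, 59.03 and 30.8 CPM in the chlorquinaldol libraries, against 590.2, 552 and 592 CPM in the cGAMP libraries and 3.12, 1.62 and 2.33 CPM in the untreated ones. All 3 chlorquinaldol libraries thus lay between the untreated and the cGAMP libraries, and replicate 3 was the lowest of them. The difference between the treatments was 12.3-fold (log2 −3.62 ± 0.19 SE, adjusted p = 2.75e-11 by edgeR).

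The widest gaps with the naming rule used here were in IFIT2, a relative of IFIT1, and in HERC5, the ligase that attaches ISG15 to proteins. IFIT2 had 40.2, 43.9 and 27.6 CPM after chlorquinaldol and 905, 809 and 914 CPM after cGAMP (23.5-fold lower, log2 −4.56 ± 0.13). HERC5 had 13.2, 14.9 and 10.02 CPM after chlorquinaldol and 265, 263 and 295 CPM after cGAMP (21.6-fold lower, log2 −4.43 ± 0.12). Neither gene's groups overlapped. The ubiquitin-like modifier gene ISG15 (11.5-fold lower, log2 −3.52 ± 0.23) and the antiviral GTPase gene MX1 (10.9-fold lower, log2 −3.45 ± 0.19) were also far lower, at 38.98 ± 16.2 and 40.5 ± 14.5 CPM after chlorquinaldol and 447 ± 56.4 and 441 ± 41.4 CPM after cGAMP (mean ± SD, n = 3 each).

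Among regulators and sensors of this list the gaps varied in size. The double-stranded RNA sensor gene OAS1 had 177, 189 and 114 CPM after chlorquinaldol and 356, 373 and 441 CPM after cGAMP, a difference of 2.44-fold (log2 −1.29 ± 0.15). IRF7, the amplifier of interferon transcription, had 94.5, 106 and 64.1 CPM after chlorquinaldol and 138, 149.8 and 171 CPM after cGAMP, 1.74-fold apart (log2 −0.79 ± 0.16, adjusted p = 0.000371), and both groups were above the untreated 10.8, 9.07 and 12.7 CPM. The nuclear body gene SP100 had 175, 175 and 173 CPM after chlorquinaldol and 144, 131 and 141 CPM after cGAMP (log2 0.33 ± 0.08, adjusted p = 0.00103). Its call was lost on the deposited FPKM, at an adjusted p = 0.153 and 0.159 with pseudocounts of 1 and 0.1. The log2 changes from untreated cells, which share the untreated libraries, were 4.31 after chlorquinaldol and 7.93 after cGAMP for IFIT1, 4.06 after chlorquinaldol and 5.34 after cGAMP for OAS1, and 1.75 after chlorquinaldol and 1.42 after cGAMP for SP100, each called.

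**Figure D3:**
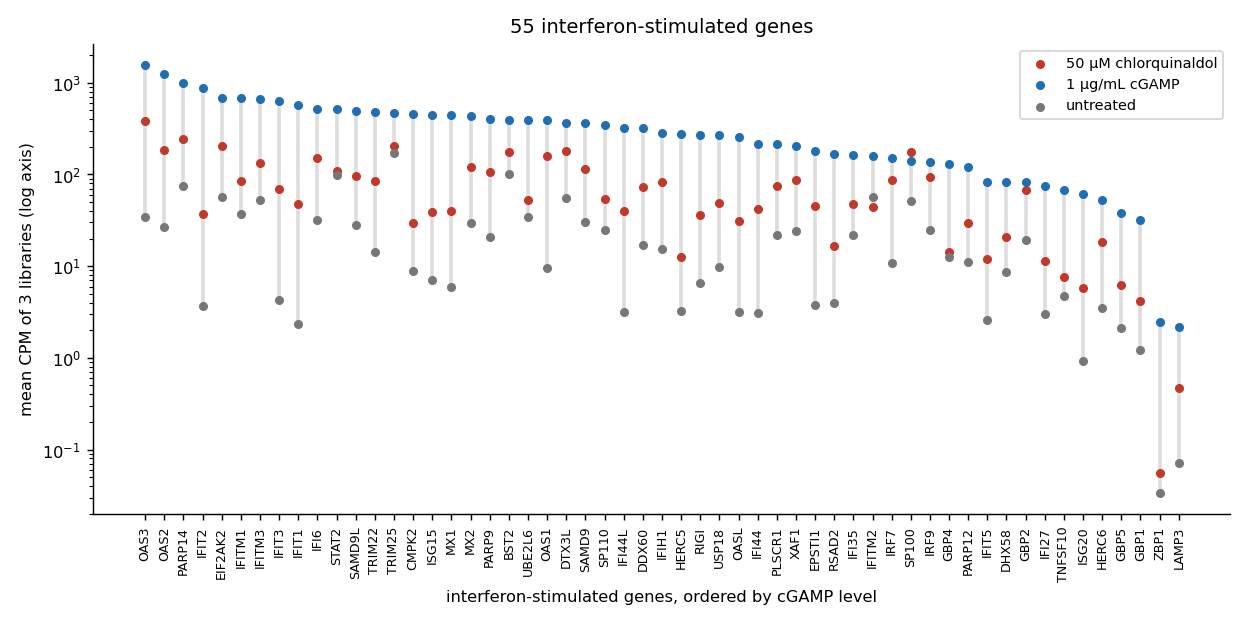
Each column is 1 of 55 of the 56 interferon-stimulated genes, ordered by its level after cGAMP; points give the mean CPM of 3 libraries on a log axis after 50 µM chlorquinaldol (red), after cGAMP (blue) and in untreated cells (grey). The red point is below the blue one in every column but SP100, by a gap that ranges from GBP2, at 68.6 CPM after chlorquinaldol and 82.4 CPM after cGAMP, to ZBP1, at 0.0552 CPM after chlorquinaldol and 2.47 CPM after cGAMP.

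In the STING pathway list, 5 of 18 tested genes were higher after chlorquinaldol and 9 lower (median log2 −0.18). STING1, the receptor of cGAMP (ENSG00000184584, chromosome 5, 139475534 to 139482935), had 92.2, 101 and 85.1 CPM after chlorquinaldol and 198, 224 and 213 CPM after cGAMP, 2.29-fold lower (log2 −1.19 ± 0.08, adjusted p = 7.56e-10), against 239, 259 and 239 CPM in untreated cells. All 3 chlorquinaldol libraries were below both other groups. CGAS, the enzyme that makes the human cyclic dinucleotide, had 78.4, 67.7 and 75.9 CPM after chlorquinaldol and 79.03, 77.4 and 85.2 CPM after cGAMP, and its groups overlapped. CGAS was not called (log2 −0.12 ± 0.08, 95% interval −0.28 to 0.04, adjusted p = 0.168), though library-size scaling and the FPKM values called it lower (adjusted p = 0.0211, 0.0183 and 0.0191).

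The largest gap in that list was in MNDA, a myeloid nuclear protein of the family of DNA sensors that includes IFI16 (ENSG00000163563, chromosome 1, 158831317 to 158849506). MNDA had 11.1, 15.9 and 13.3 CPM after chlorquinaldol, 238, 217 and 209 CPM after cGAMP and 65.7, 72.1 and 64.5 CPM in untreated cells, so the treatments lay on opposite sides of the untreated level, 16.4-fold apart (log2 −4.04 ± 0.13, adjusted p = 1.92e-13). IFI16 had 106 ± 11.9 CPM after chlorquinaldol and 303 ± 12.4 CPM after cGAMP, 2.85-fold lower, and both were above the 18.1 ± 0.908 CPM of untreated cells. The members higher by the widest margins were TICAM1, the adaptor of endosomal RNA sensing, at 41.8 ± 6.87 CPM after chlorquinaldol and 12.6 ± 0.650 CPM after cGAMP (3.31-fold), and the efflux pump gene ABCC1, which can export cyclic dinucleotides, at 150.0 ± 18.1 CPM after chlorquinaldol and 65.3 ± 4.19 CPM after cGAMP (2.30-fold).

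Chemokine genes went both ways. Of the 8 tested chemokine genes linked to interferon, 6 were lower after chlorquinaldol and 2 higher (median log2 −2.37). CXCL10, which attracts activated T cells (ENSG00000169245, chromosome 4, 76021117 to 76023497), had 13.9, 13.98 and 5.69 CPM after chlorquinaldol and 106, 106 and 123 CPM after cGAMP, 9.98-fold lower (log2 −3.32 ± 0.23). Its neighbour CXCL11 was 12.9-fold lower at 2.90 ± 1.10 CPM after chlorquinaldol and 37.5 ± 5.06 CPM after cGAMP, and the monocyte attractant gene CCL8 34.9-fold lower at 0.613 ± 0.194 CPM after chlorquinaldol and 21.6 ± 0.607 CPM after cGAMP. The macrophage inflammatory protein genes CCL3 and CCL4 went the other way, with 385, 259 and 166 CPM of CCL3 after chlorquinaldol and 47.95, 47.6 and 55.8 CPM after cGAMP (5.36-fold higher, log2 2.42 ± 0.26). CCL4 had 106, 37.4 and 27.04 CPM after chlorquinaldol and 6.64, 5.76 and 9.42 CPM after cGAMP (7.82-fold higher, log2 2.97 ± 0.39), and without chlorquinaldol replicate 1, its highest library, the log2 difference was 2.18.

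All 6 tested genes for neutrophil-attracting CXCL chemokines were higher after chlorquinaldol (median log2 5.77). CXCL8, which encodes interleukin 8 (ENSG00000169429, chromosome 4, 73740506 to 73743716), had 4166, 2591 and 3025 CPM after chlorquinaldol, 43.95, 37.8 and 37.6 CPM after cGAMP and 106, 69.8 and 106 CPM in untreated cells. Every chlorquinaldol library was above, and every cGAMP library below, the untreated range, 81.97-fold apart (log2 6.36 ± 0.24, adjusted p = 1.19e-12). CXCL2 had 83.3, 37.9 and 34.96 CPM after chlorquinaldol and 0.673, 0.694 and 0.490 CPM after cGAMP, and CXCL3 had 51.96, 27.6 and 23.5 CPM after chlorquinaldol and 0.155, 0.267 and 0.490 CPM after cGAMP. In these 3 genes replicate 1 was the highest chlorquinaldol library.

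Inflammatory mediators and the feedback genes of NF-kB, the transcription factor behind most of them, were higher after chlorquinaldol in 23 of 25 tested cases and lower in 1 (median log2 2.31). IL1B, which encodes the cytokine interleukin 1 beta (ENSG00000125538, chromosome 2, 112829751 to 112836903), had 849, 421 and 330.1 CPM after chlorquinaldol, 6.37, 6.09 and 6.48 CPM after cGAMP and 29.6, 18.04 and 18.1 CPM in untreated cells, without overlap of any 2 groups. The treatments differed 84.4-fold (log2 6.40 ± 0.34, adjusted p = 3.70e-11). IL1A had 21.8, 11.2 and 9.31 CPM after chlorquinaldol and at most 0.155 CPM in a cGAMP library (log2 6.96 ± 0.45). TNF was 3.53-fold higher (log2 1.82 ± 0.24), at 221, 197 and 93.7 CPM after chlorquinaldol and 47.98, 46.4 and 50.6 CPM after cGAMP, and it had 56.98, 73.8 and 91.03 CPM in untreated cells, so its chlorquinaldol replicate 3 lay close to the highest untreated library. IL1RN, which encodes the natural blocker of the interleukin 1 receptor, was the member called lower, at 66.6, 47.4 and 36.8 CPM after chlorquinaldol and 120.2, 129.5 and 154 CPM after cGAMP (2.68-fold lower, log2 −1.42 ± 0.16).

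Immediate early genes, which respond first to growth factors and stress, were higher after chlorquinaldol in 24 of 28 cases and lower in none (median log2 1.88). The largest gap was in IER3, an early gene that NF-kB also drives, with 44.2, 23.4 and 17.8 CPM after chlorquinaldol and 0.544, 1.12 and 0.871 CPM after cGAMP (33.1-fold higher). FOSB, a subunit of the transcription factor AP-1, had 33.8, 46.5 and 41.1 CPM after chlorquinaldol, 3.16, 3.04 and 3.05 CPM after cGAMP and 5.08, 5.69 and 11.9 CPM in untreated cells (13.1-fold higher than after cGAMP, log2 3.71 ± 0.24). FOSB too was above the untreated libraries after chlorquinaldol and below them after cGAMP.

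Inflammasome genes went both ways, 8 of 13 higher and 5 lower (median log2 0.56). Those higher included the sensor genes NLRP1, at 14.1 ± 1.33 CPM after chlorquinaldol and 2.85 ± 0.601 CPM after cGAMP (4.91-fold), and NLRC4, at 24.00 ± 2.42 CPM after chlorquinaldol and 7.84 ± 1.13 CPM after cGAMP (3.06-fold). NAIP, the bacterial ligand receptor that acts with NLRC4, had 15.2, 17.3 and 19.1 CPM after chlorquinaldol and 103, 90.4 and 98.2 CPM after cGAMP (5.65-fold lower, log2 −2.50 ± 0.15). The pore-forming gasdermin gene GSDMD had 33.3, 40.7 and 33.6 CPM after chlorquinaldol, 90.95, 99.5 and 105 CPM after cGAMP and 56.1, 58.9 and 56.4 CPM in untreated cells, 2.75-fold lower than after cGAMP (log2 −1.46 ± 0.09), with the untreated libraries between the treatments.

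**Figure D4:**
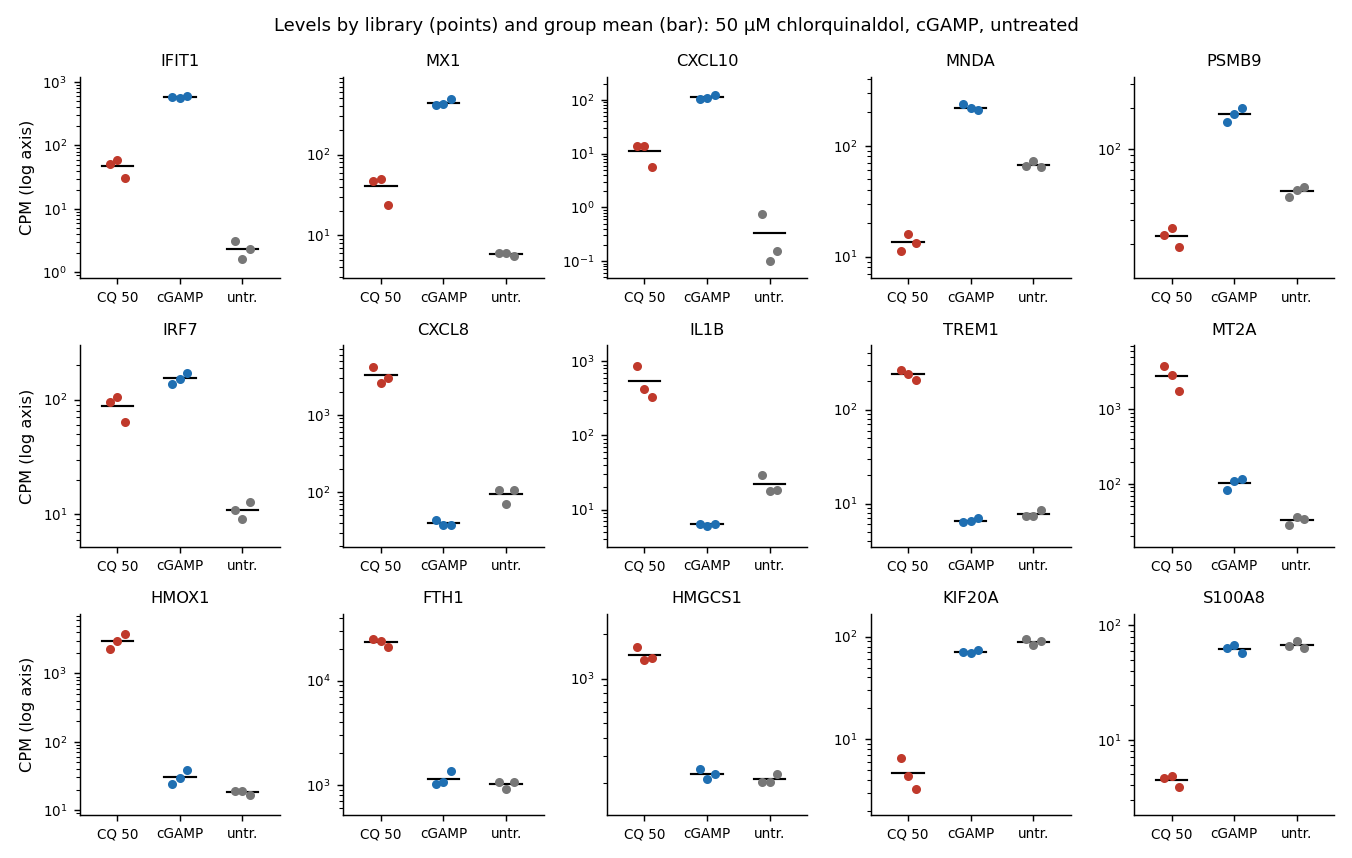
Panels give the CPM of 15 genes on log axes in each library, with 50 µM chlorquinaldol at the left, cGAMP in the middle and untreated cells at the right; bars are group means of 3 libraries. Interferon-stimulated genes are highest after cGAMP, CXCL8 and IL1B are above the untreated level after chlorquinaldol and below it after cGAMP, and MNDA and PSMB9 show the reverse.

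Antigen presentation by MHC class I, which displays peptides cut by the immunoproteasome, was lower after chlorquinaldol in 16 of 19 listed genes and higher in 1, TAPBP (median log2 −0.65). The immunoproteasome gene PSMB9 (ENSG00000240065, chromosome 6, 32844136 to 32859585) had 23.2, 26.2 and 19.00 CPM after chlorquinaldol, 158, 181 and 198 CPM after cGAMP and 44.1, 49.6 and 52.6 CPM in untreated cells (7.84-fold lower than after cGAMP, log2 −2.97 ± 0.12, adjusted p = 1.48e-12). NLRC5, the transactivator of class I genes, had 18.2, 19.2 and 17.4 CPM after chlorquinaldol, 86.5, 91.3 and 109 CPM after cGAMP and 61.4, 55.2 and 54.4 CPM in untreated cells (5.23-fold lower than after cGAMP). For both genes all chlorquinaldol libraries were below, and all cGAMP libraries above, the untreated range. The peptide transporter gene TAP1 had 87.3, 86.01 and 64.9 CPM after chlorquinaldol and 333, 380.4 and 435 CPM after cGAMP (4.82-fold lower), and its position overlaps that of PSMB9, so reads in the overlap may be assigned to either gene. TAPBP, a chaperone of class I loading, had 281 ± 14.7 CPM after chlorquinaldol and 236 ± 30.4 CPM after cGAMP (adjusted p = 0.0258), and its call was lost without cGAMP replicate 1 (0.158), with library-size scaling (0.104) and on FPKM (0.0742 and 0.0755).

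The constitutive proteasome list was lower in 18 of 31 genes and higher in 3 (median log2 −0.37), with the alpha ring subunit gene PSMA4 at 157 ± 5.05 CPM after chlorquinaldol and 384 ± 10.45 CPM after cGAMP (2.45-fold lower), against 160.0 ± 5.53 CPM in untreated cells. PSMA1, another subunit of that ring, was 1.45-fold higher, at 248 ± 17.4 CPM after chlorquinaldol and 171 ± 3.71 CPM after cGAMP. MHC class II genes were mixed, 4 of 11 tested higher and 5 lower (median log2 0.11), and CIITA, their transactivator, was 2.85-fold lower at 2.04 ± 0.476 CPM after chlorquinaldol and 5.85 ± 1.04 CPM after cGAMP.

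All 9 metallothionein genes listed were higher after chlorquinaldol than after cGAMP. Of the 27 genes for metallothioneins and zinc transporters, 17 were higher after chlorquinaldol and 7 lower (median log2 1.00). MT2A, a small cysteine-rich protein that holds zinc and copper (ENSG00000125148, chromosome 16, 56608199 to 56609497), had 3757, 2872 and 1769 CPM after chlorquinaldol, 82.2, 109 and 117 CPM after cGAMP and 27.8, 35.9 and 34.1 CPM in untreated cells. The lowest chlorquinaldol library, replicate 3, was far above the highest cGAMP library, and the groups differed 27.3-fold (log2 4.77 ± 0.23, adjusted p = 1.39e-11). MT1M had 358, 246 and 118 CPM after chlorquinaldol and 0.362, 0.481 and 0.381 CPM after cGAMP (log2 9.18 ± 0.44). MT1B had 1450 counts after chlorquinaldol and 1 after cGAMP, a ratio of 1520 (95% interval from counting error 273 to 60100), and its chlorquinaldol libraries spread from 5.58 to 50.4 CPM. Its log2 difference of 10.13 moved to 9.39 without chlorquinaldol replicate 1 and to 12.04 without cGAMP replicate 2. MT1 genes are near-identical copies, so reads may be split among them.

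Zinc transporter genes went both ways. The plasma membrane exporter gene SLC30A1 (ENSG00000170385, chromosome 1, 211571568 to 211578742) had 385, 303 and 305 CPM after chlorquinaldol and 42.5, 39.7 and 44.3 CPM after cGAMP, 7.84-fold higher (log2 2.97 ± 0.10, adjusted p = 6.12e-13). The importer genes SLC39A10 and SLC39A3 were 4.79-fold and 4.09-fold lower, at 3.24 ± 0.319 and 7.10 ± 0.324 CPM after chlorquinaldol and 15.5 ± 1.37 and 29.1 ± 1.88 CPM after cGAMP. None of these 3 transporters differed by a called amount between cGAMP and untreated cells.

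Iron and heme genes were higher in 10 of 18 cases and lower in 7 (median log2 0.55). HMOX1, the enzyme that degrades heme (ENSG00000100292, chromosome 22, 35380361 to 35394214), had 2246, 2942 and 3819 CPM after chlorquinaldol and 24.2, 29.6 and 38.01 CPM after cGAMP, 98.1-fold higher (log2 6.62 ± 0.31, adjusted p = 9.70e-12). FTH1, the ferritin heavy chain that stores iron (ENSG00000167996, chromosome 11, 61959718 to 61967660), had 24844, 23812 and 21237 CPM after chlorquinaldol and 1027, 1070 and 1349 CPM after cGAMP, 20.3-fold higher (log2 4.34 ± 0.15). TFRC, the receptor that brings in iron, was higher as well, at 399, 403 and 475 CPM after chlorquinaldol and 78.2, 69.6 and 71.6 CPM after cGAMP (5.82-fold, log2 2.54 ± 0.09). In each of these 3 genes the groups were far from overlapping, and the cGAMP libraries were not called apart from untreated ones. BLVRA, which turns biliverdin into bilirubin, was 3.30-fold lower, at 28.1 ± 2.69 CPM after chlorquinaldol, 92.6 ± 9.38 CPM after cGAMP and 31.8 ± 2.15 CPM in untreated cells. The endosomal ferrireductase gene STEAP3 was 4.45-fold lower, at 2.42 ± 0.978 CPM after chlorquinaldol and 10.7 ± 0.382 CPM after cGAMP.

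Genes driven by NRF2 were higher after chlorquinaldol in 19 of 23 tested cases and lower in 3 (median log2 1.68). ABCC3, an efflux pump for conjugates, had 66.05, 67.3 and 76.01 CPM after chlorquinaldol and 0.883, 1.07 and 1.53 CPM after cGAMP (60.2-fold higher, log2 5.91 ± 0.23). SLC7A11, which imports cystine for glutathione synthesis, had 109.9, 107 and 144 CPM after chlorquinaldol and 9.40, 9.69 and 7.64 CPM after cGAMP (13.5-fold higher, log2 3.76 ± 0.23). The aldo-keto reductase genes AKR1C3 and AKR1C2 were the members called lower by the widest margins, at 5.65 ± 1.02 and 149 ± 11.1 CPM after chlorquinaldol and 15.97 ± 0.399 and 319.7 ± 6.97 CPM after cGAMP.

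Hypoxia and glycolysis genes were higher in 32 of 34 tested cases and lower in 1 (median log2 1.62). FLT1, a receptor for VEGF (ENSG00000102755, chromosome 13, 28300344 to 28495145), had 152, 146 and 129 CPM after chlorquinaldol and 0.880, 0.641 and 0.926 CPM after cGAMP (173-fold higher, log2 7.44 ± 0.25). Its ligand gene VEGFA had 879, 816 and 835 CPM after chlorquinaldol and 194, 190.0 and 226 CPM after cGAMP (4.15-fold higher, log2 2.05 ± 0.10), and ANGPTL4, an inhibitor of lipoprotein lipase, 95.9, 75.7 and 63.95 CPM after chlorquinaldol and 1.86, 2.83 and 4.08 CPM after cGAMP (26.9-fold higher). The glycolytic enzyme gene GAPDH, often used as a reference transcript, was 2.33-fold higher (log2 1.22 ± 0.12), at 5508 ± 835 CPM after chlorquinaldol and 2364 ± 183 CPM after cGAMP. CITED2, a feedback inhibitor of the hypoxia factor HIF-1, was the member called lower, at 317 ± 35.2 CPM after chlorquinaldol, 754 ± 62.3 CPM after cGAMP and 566 ± 49.05 CPM in untreated cells (2.38-fold lower than after cGAMP). The core of the hypoxia response element, ACGTG, was present in 15 of 29 promoters of this list (51.7%) and in 26.2% of promoters of tested genes. Among genes called at least 2-fold higher after chlorquinaldol it was in 24.1% of promoters, and among those at least 2-fold lower in 24.7%.

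Sterol synthesis genes were higher in 22 of 23 tested cases and lower in 1 (median log2 1.78). HMGCS1, which makes the substrate of HMG-CoA reductase (ENSG00000112972, chromosome 5, 43289395 to 43313512), had 1641, 1330 and 1371 CPM after chlorquinaldol and 246, 212 and 229 CPM after cGAMP (6.31-fold higher, log2 2.66 ± 0.10). The decarboxylase gene MVD was 5.43-fold higher at 228 ± 19.5 CPM after chlorquinaldol and 42.1 ± 6.17 CPM after cGAMP. PMVK, the kinase that acts just before MVD in the pathway, was the member called lower, at 12.9, 17.2 and 12.4 CPM after chlorquinaldol and 23.3, 26.1 and 24.4 CPM after cGAMP (1.74-fold lower, log2 −0.80 ± 0.13).

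Genes of the amino acid and integrated stress response governed by ATF4 were higher in 21 of 31 tested cases and lower in 4 (median log2 0.52). The stress hormone gene GDF15 had 49.6, 76.5 and 69.04 CPM after chlorquinaldol and 3.62, 3.58 and 4.74 CPM after cGAMP (16.4-fold higher, log2 4.03 ± 0.29). TRIB3 and DDIT3, which encode regulators of this response, were 5.12-fold and 2.56-fold higher. The stress regulator gene NUPR1 and the tryptophanyl-tRNA synthetase gene WARS1 were called lower and had their highest level after cGAMP. NUPR1 had 58.2 ± 3.78 CPM after chlorquinaldol, 148 ± 35.1 CPM after cGAMP and 37.9 ± 10.2 CPM in untreated cells, and WARS1 had 213 ± 20.02 CPM after chlorquinaldol, 489 ± 77.5 CPM after cGAMP and 117 ± 5.51 CPM in untreated cells. WARS1 is known as an interferon-induced gene as well.

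The chaperones of the endoplasmic reticulum showed no common direction, with 8 of 20 genes higher, 6 lower and a median log2 of −0.003 that turned positive under 10 alternatives, from 0.01 with upper-quartile scaling to 0.13 without chlorquinaldol replicate 1. HERPUD1, a component of protein degradation at that membrane, was 1.68-fold higher, and the co-chaperone gene SDF2L1 3.75-fold lower at 5.71 ± 0.299 CPM after chlorquinaldol and 21.4 ± 0.706 CPM after cGAMP. Heat shock genes were lower in 13 of 21 tested cases and higher in 3 (median log2 −0.59). The HSP90 cofactor gene AHSA1 had 42.6, 41.4 and 41.3 CPM after chlorquinaldol, 114, 125 and 122 CPM after cGAMP and 91.2, 95.4 and 89.2 CPM in untreated cells (2.88-fold lower than after cGAMP). Of the 3 called higher, DNAJB4 (adjusted p = 0.0413) lost its call under 11 alternatives, with adjusted p up to 0.941, and BAG3 (adjusted p = 0.00796) with library-size scaling (0.0541) and on FPKM (0.0866 and 0.0854).

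Genes of p53 and apoptosis were higher in 12 of 24 cases and lower in 7 (median log2 0.28). The cell cycle inhibitor gene CDKN1A had 766, 880.1 and 712 CPM after chlorquinaldol and 152, 172 and 204 CPM after cGAMP (4.46-fold higher, log2 2.16 ± 0.16), both above the 82.05, 91.8 and 105 CPM of untreated cells. Survival genes of the BCL2 family went apart: BCL2 itself was 4.08-fold lower, at 24.03 ± 5.38 CPM after chlorquinaldol and 97.8 ± 5.53 CPM after cGAMP, and BCL2A1, a target of NF-kB, 5.64-fold higher, at 52.1 ± 12.8 CPM after chlorquinaldol and 9.22 ± 0.799 CPM after cGAMP. TNFRSF10B, a death receptor for TRAIL, was 4.55-fold higher. Lysosome and autophagy genes were higher in 15 of 30 cases and lower in 6 (median log2 0.25), led by the autophagosome gene GABARAPL1 (5.94-fold higher) and the protease gene CTSL, at 1138, 1005 and 981 CPM after chlorquinaldol and 176, 178 and 210.2 CPM after cGAMP (5.54-fold higher).

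Proliferation genes were lower after chlorquinaldol than after cGAMP. All 24 genes of the G2/M phase were called lower (median log2 −1.76). KIF20A, a kinesin needed for cytokinesis (ENSG00000112984, chromosome 5, 138178719 to 138187715), had 6.55, 4.38 and 3.29 CPM after chlorquinaldol, 70.1, 69.5 and 73.3 CPM after cGAMP and 94.2, 82.5 and 91.2 CPM in untreated cells (15.02-fold lower than after cGAMP, log2 −3.91 ± 0.23, adjusted p = 1.39e-10). The mitotic kinase gene PLK1 had 21.1, 19.6 and 19.1 CPM after chlorquinaldol and 95.8, 116 and 118 CPM after cGAMP (5.51-fold lower), and the proliferation marker gene MKI67 217, 155 and 133 CPM after chlorquinaldol and 397, 388 and 375 CPM after cGAMP (2.30-fold lower). In all 24 of these genes the chlorquinaldol libraries lay below every cGAMP library, where 36.3% of tested genes did.

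S phase genes were lower in 17 of 24 cases and higher in 4 (median log2 −0.52). The replicative helicase genes MCM3 and MCM4 were 2.00-fold and 1.99-fold lower, while thymidine kinase TK1 was 1.69-fold higher, at 198 ± 26.2 CPM after chlorquinaldol and 117 ± 11.2 CPM after cGAMP. The cell cycle factor gene E2F1 was called higher (adjusted p = 0.0117), and its call was lost without cGAMP replicate 1 (0.0785), with library-size scaling (0.0706) and on FPKM (0.0835 and 0.0799). Ribosome biogenesis genes were lower in 18 of 25 cases and higher in none (median log2 −0.86), with RRS1, an assembly factor of the large subunit, at 4.64, 5.37 and 3.89 CPM after chlorquinaldol and 25.7, 28.1 and 22.7 CPM after cGAMP (5.50-fold lower) and MYC, the factor that promotes ribosome synthesis, 1.49-fold lower (log2 −0.57 ± 0.11). The structural proteins of the ribosome differed little: 4 of 29 were lower, none higher, and their median log2 difference was −0.09.

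Messenger RNAs encoded by mitochondrial DNA were lower after chlorquinaldol in all 13 cases (median log2 −2.61). MT-CO2, a cytochrome oxidase subunit (ENSG00000198712, chromosome M, 7586 to 8269), had 372, 208 and 136 CPM after chlorquinaldol, 2964, 3166 and 3166 CPM after cGAMP and 4284, 4248 and 3709 CPM in untreated cells (12.98-fold lower than after cGAMP, log2 −3.70 ± 0.34, adjusted p = 3.62e-08). MT-ND6, the messenger on the other strand, had 47.4, 27.5 and 9.14 CPM after chlorquinaldol and 441, 399.5 and 473 CPM after cGAMP (15.7-fold lower). Chlorquinaldol replicate 3 was the lowest library for both genes, and no chlorquinaldol library reached the cGAMP range.

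The ribosomal RNAs of the same molecule went the other way. MT-RNR1, the small ribosomal RNA, had 2331, 1593 and 1189 CPM after chlorquinaldol and 741, 780.4 and 814 CPM after cGAMP (2.19-fold higher, log2 1.13 ± 0.21, adjusted p = 0.000131), and MT-RNR2, the large one, was 1.84-fold higher (log2 0.88 ± 0.13, adjusted p = 1.57e-05). Both were named after their values were seen. All 37 genes of mitochondrial DNA together took 2.25% to 2.47% of counts in the chlorquinaldol libraries, 4.31% to 4.64% in the cGAMP libraries and 5.45% to 6.09% in the untreated ones. Libraries were selected for poly(A) RNA, and the part of tail length in these levels was not measured.

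**Figure D5:**
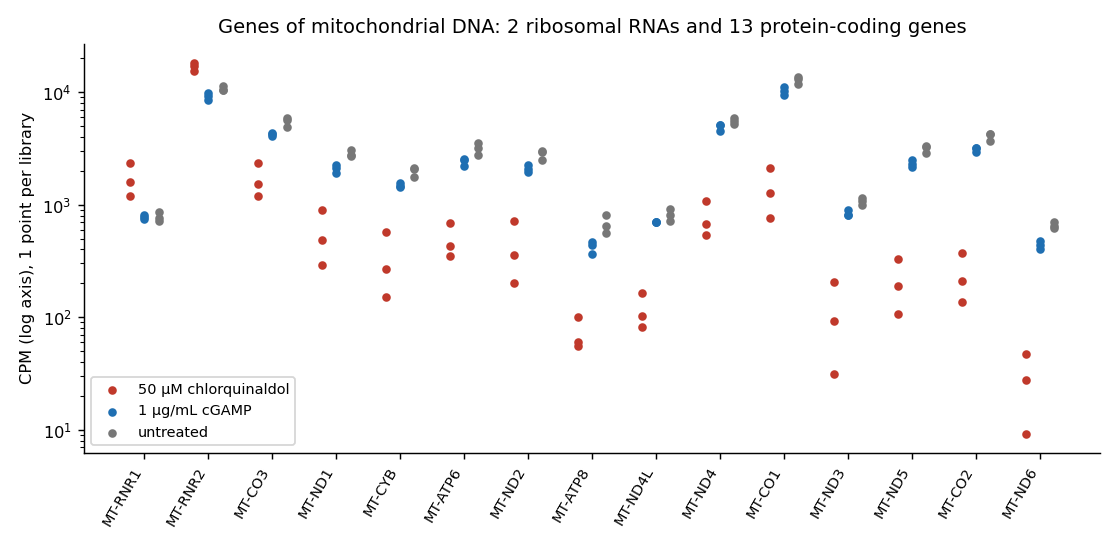
CPM of the 2 ribosomal RNAs and 13 messenger RNAs encoded by mitochondrial DNA on a log axis, with 1 point per library for 50 µM chlorquinaldol (red), cGAMP (blue) and untreated cells (grey). For each messenger the 3 chlorquinaldol libraries are the lowest; for MT-RNR1 and MT-RNR2 they are the highest.

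Genes of myeloid identity were split, 10 of 24 higher and 14 lower (median log2 −0.89). The calcium-binding alarmin gene S100A8 had 4.64, 4.82 and 3.83 CPM after chlorquinaldol, 62.99, 67.5 and 57.6 CPM after cGAMP and 65.8, 73.1 and 63.96 CPM in untreated cells (14.1-fold lower than after cGAMP, log2 −3.82 ± 0.19), and its partner S100A9 was 9.05-fold lower at 19.3 ± 3.32 CPM after chlorquinaldol and 175 ± 8.61 CPM after cGAMP. The receptor gene CSF2RA, which binds GM-CSF, was 4.87-fold higher at 98.97 ± 8.64 CPM after chlorquinaldol and 20.3 ± 1.90 CPM after cGAMP, and the integrin gene ITGAX 4.45-fold higher at 499 ± 4.67 CPM after chlorquinaldol and 112 ± 13.5 CPM after cGAMP.

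Macrophage receptor and lipid-loading genes were higher in 15 of 28 tested cases and lower in 7 (median log2 0.70). TREM1, a receptor that amplifies inflammation (ENSG00000124731, chromosome 6, 41267926 to 41286719), had 267, 241 and 205 CPM after chlorquinaldol and 6.32, 6.46 and 6.97 CPM after cGAMP (36.1-fold higher, log2 5.17 ± 0.14, adjusted p = 7.57e-14). FABP4, a fatty acid carrier, had 399, 359.8 and 187 CPM after chlorquinaldol and 7.20, 6.46 and 5.94 CPM after cGAMP (48.2-fold higher). SERPINB2, an inhibitor of urokinase and the largest decrease under the naming rule, had 1.86, 0.987 and 1.26 CPM after chlorquinaldol, 224, 215 and 183 CPM after cGAMP and 206, 198 and 229 CPM in untreated cells (152-fold lower than after cGAMP, log2 −7.24 ± 0.48). The scavenger receptor gene MARCO was 3.23-fold lower at 1.78 ± 0.177 CPM after chlorquinaldol and 5.78 ± 0.335 CPM after cGAMP.

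The 12 largest increases among genes with a symbol that reached 5 CPM after chlorquinaldol, with no overlap between libraries, were, beside genes given above, those of NRCAM, SUSD5, AK8, LINC03047, N4BP3, HTRA3 and GEM. NRCAM, a neuronal cell adhesion gene (ENSG00000091129, chromosome 7, 108147623 to 108456717), had 46.9, 40.5 and 56.1 CPM after chlorquinaldol and 0.155, 0.107 and 0.0545 CPM after cGAMP (log2 8.73 ± 0.27, adjusted p = 1.98e-13). SUSD5 had 42.5, 21.9 and 6.68 CPM after chlorquinaldol and no more than 0.109 CPM in a cGAMP library, and its log2 difference of 7.95 moved to 7.26 without chlorquinaldol replicate 1. The adenylate kinase gene AK8 had 342 counts after chlorquinaldol and 2 after cGAMP, a ratio of 179 (95% interval from counting error 49.3 to 1490), and its log2 difference of 7.24 moved to 9.93 without cGAMP replicate 2. The sizes of such differences depend on the constant added to low levels: on log2(FPKM + 1) and log2(FPKM + 0.1), NRCAM was at 3.15 and 5.80 and SUSD5 at 2.35 and 4.90. The others lay at log2 6.99 for LINC03047, 6.86 for N4BP3, 6.84 for the secreted protease gene HTRA3 and 6.67 for the small GTPase gene GEM.

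The 12 largest decreases by the same rule included genes with more CPM after cGAMP than in untreated cells and genes with fewer CPM after chlorquinaldol than in untreated cells. NEXN, an actin-binding protein of muscle (ENSG00000162614, chromosome 1, 77888513 to 77943895), had 1.16, 1.53 and 1.204 CPM after chlorquinaldol, 102, 96.8 and 110.4 CPM after cGAMP and 1.51, 2.15 and 2.23 CPM in untreated cells (log2 −6.30 ± 0.17, 78.7-fold lower than after cGAMP). TRIM31, a ubiquitin ligase gene, had 0.0580, 0.164 and 0.164 CPM after chlorquinaldol and 6.47, 8.33 and 9.59 CPM after cGAMP, and the septin gene SEPTIN4 0.406, 0.548 and 0.602 CPM after chlorquinaldol and 17.3, 18.5 and 24.7 CPM after cGAMP, both with under 1 CPM in every untreated library. TERT, the catalytic subunit of telomerase (ENSG00000164362, chromosome 5, 1253147 to 1295069), had 0.174, 0.0548 and 0.108 CPM after chlorquinaldol, 6.42, 6.36 and 6.54 CPM after cGAMP and 6.38, 7.70 and 7.13 CPM in untreated cells (54.5-fold lower than after cGAMP). The remaining log2 differences were −6.35 for LINC03023, −6.03 for AJAP1, −5.85 for the pseudogene PTCHD3P2, −5.81 for the pseudogene REXO1L1P, −5.73 for the calcium channel subunit gene CACNA2D3 and −5.50 for FAM135B. PAX5, a transcription factor of the B lineage, had 1.39, 1.59 and 1.42 CPM after chlorquinaldol, 46.8, 52.1 and 66.7 CPM after cGAMP and 1.16, 0.871 and 0.983 CPM in untreated cells (37.4-fold lower than after cGAMP).

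Set beside untreated cells, several genes named above moved in opposite directions with each treatment, both changes being called in the same model and sharing the untreated libraries. The log2 changes were 5.11 after chlorquinaldol and −1.24 after cGAMP for CXCL8, 4.60 after chlorquinaldol and −1.80 after cGAMP for IL1B, and 2.42 after chlorquinaldol and −1.29 after cGAMP for FOSB. They were −2.32 after chlorquinaldol and 1.71 after cGAMP for MNDA, −1.10 after chlorquinaldol and 1.87 after cGAMP for PSMB9, −1.64 after chlorquinaldol and 0.74 after cGAMP for NLRC5, −0.67 after chlorquinaldol and 0.79 after cGAMP for GSDMD, and −1.14 after chlorquinaldol and 0.39 after cGAMP for AHSA1. For CXCL3, IER3 and NAIP the change after cGAMP (log2 −2.30, −1.52 and 0.46) lost its call when 1 untreated library was left out, CXCL3 without replicate 1, IER3 without replicate 1 or 3 and NAIP without replicate 2 (adjusted p of 0.102, 0.0514, 0.0548 and 0.0906).

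Of the 16628 tested genes, 39 with a symbol were called at least 4-fold above untreated cells, and had at least 5 CPM, after both treatments. Both changes share the untreated libraries, so this count served to choose genes and does not measure a common response. Of the 8 with the smallest difference between the treatments, 3 were not called apart and 5 were. These 8 were picked by that same difference, so missing calls and overlap among them follow in part from the choice. SAMD4A, an RNA-binding repressor of translation, had 9.34, 9.65 and 9.96 CPM after chlorquinaldol, 9.27, 8.38 and 10.2 CPM after cGAMP and 0.904, 0.769 and 1.19 CPM in untreated cells. The meiotic cohesin gene REC8 had 44.3, 44.1 and 38.5 CPM after chlorquinaldol, 37.7, 36.8 and 44.2 CPM after cGAMP and 9.85, 10.1 and 9.61 CPM in untreated cells. The groups overlapped in both genes, and the 95% intervals of the log2 difference were −0.24 to 0.36 for SAMD4A and −0.15 to 0.35 for REC8. RIN2, an endocytosis regulator, had an interval of −0.07 to 0.58 and was called higher without chlorquinaldol replicate 3 (adjusted p = 0.00839) and on log2(FPKM + 1) (0.0434). SLAMF7, an immune cell receptor, was called higher (log2 0.57 ± 0.23, adjusted p = 0.0334), a call lost under several alternatives with adjusted p up to 0.333. The others were called apart: the immune checkpoint gene HAVCR2 was 2.34-fold higher, and IRF7, LY6E and OAS1 were 1.74-fold, 2.21-fold and 2.44-fold lower. For lowered genes the same rule, with at least a 2-fold drop and 5 CPM in untreated cells, left 1 gene, PRAM1, an adaptor of myeloid cells, at 1.80, 3.57 and 2.52 CPM after chlorquinaldol, 3.52, 3.79 and 2.94 CPM after cGAMP and 6.68, 7.79 and 8.85 CPM in untreated cells. PRAM1 was not called between the treatments (log2 −0.38 ± 0.24), except without chlorquinaldol replicate 2 (−0.64, adjusted p = 0.0354).

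Levels of different genes were compared per length, as TPM computed from the deposited FPKM. FTH1 ranked 1 after chlorquinaldol at 44890 ± 1493 TPM and 88 after cGAMP at 2265 ± 257 TPM (mean ± SD, n = 3 each). MT2A ranked 2 after chlorquinaldol at 18139 ± 5593 TPM and 194 after cGAMP at 682 ± 116 TPM. PLIN2, which coats lipid droplets, ranked 9 at 7813 ± 1045 TPM after chlorquinaldol and 119 at 1567 ± 218 TPM after cGAMP. The mitochondrial messenger MT-ATP8 ranked 43 after chlorquinaldol at 3591 ± 1208 TPM and 1 after cGAMP at 21892 ± 3056 TPM. The 20 most abundant transcripts of each group held 21.4% to 22.4% of all TPM after chlorquinaldol and 18.1% to 19.2% after cGAMP. The translation factor gene EEF1A1 ranked 3 in both groups, at 17641 ± 1148 TPM after chlorquinaldol and 12866 ± 320 TPM after cGAMP.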

How the data were processed

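RNA-seq of THP-1 cells, 12 libraries in 4 labelled groups of 3, was analysed from the deposited table of estimated counts and the deposited FPKM. The submitters' processing notes name RSEM, GRCh38 and DESeq2 1.26.0 without their roles, and per the labels' protocols RNA was oligo(dT)-selected and sequenced on a DNBSEQ instrument. Strand is not given in the sources used here, so reads of genes that overlap on opposite strands (IFIT1 and LIPA, FOSB and ERCC1, REC8 and IPO4, NEXN and NEXN-AS1) and of near-identical copies (MT1 genes, HSPA1A and HSPA1B, ferritin heavy chain copies) cannot be told apart.

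Estimated counts were rounded, since 42.307% of values above 0 were not whole. The table has 62914 entries; 326 that name no annotated gene, 0.182% to 0.29% of counts, were left out, and 58167 of the rest had a GENCODE 29 position. Genes passing filterByExpr (minimum count 10) numbered 16628. They were scaled by TMM and tested with edgeR 4.0.16's quasi-likelihood test in R 4.3.3 over all 12 libraries, with 8 residual and 8.99 prior degrees of freedom, and Benjamini-Hochberg adjusted p-values below 0.05 were called. CPM use TMM-scaled library sizes. Values after ± are SE for log2 differences, taken as the size of the difference over the square root of F, and SD (n = 3) for levels.

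Genes were named by rule: the 12 largest called differences each way among genes with a symbol (5 CPM or more in one group, no overlap of libraries), the 2 largest each way in each list, a panel of pathway genes, and the genes with the smallest difference among those changed alike against untreated cells. PLIN2, MT-RNR1, MT-RNR2, MT-ATP8, GAPDH, SPI1, ITGB2, ZBP1, MS4A1, IGHM, IFNL1, MT1X, EEF1A1 and GBP2 are outside the rule and were chosen after their values were seen. The members and lists were chosen with earlier results of these data known. Individual values of some list members are not reported here. Promoters are RefSeq's on GRCh38.p14. Alternatives were DESeq2 1.42.0, other scalings, filters and thresholds, the 2 groups alone, a replicate block, limma 3.58.1 on log2 FPKM, and leaving out each library. The procedure was tested on simulated data in which few genes changed, equally in both directions. That test could not check the scaling where most genes are called, as here.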

Additional observations from a re-analysis of the deposited data

How the results depend on the processing

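The counts of called genes, 5318 higher and 5768 lower after chlorquinaldol, were 5251 and 5265 with DESeq2, 5795 and 5715 without a filter, 4563 and 4882 at an adjusted p below 0.01, and 4695 and 6335 with library size only, where 57.4% of calls were lower, against 52.0% with TMM, and the median log2 difference over all genes was −0.12. Genes called at least 2-fold apart fell to 1427 higher and 1354 lower when at least 5 CPM was required in 3 libraries, a filter that leaves 11634 genes, and to 1180 and 1428 with limma on log2(FPKM + 1). With only the constant changed, log2(FPKM + 0.1) gave 1928 and 2280. On FPKM with constants of 1 and 0.1, 57.5% and 57.6% of calls were lower, and the medians over all genes were −0.08 and −0.11. The FPKM and library-size fits both lack TMM scaling, so calls lost or gained under both are not separate checks. Leaving out 1 library of either group gave 5051 to 5353 higher and 5301 to 5481 lower, and 2378 to 2442 higher and 2152 to 2207 lower at 2-fold or more. The difference in SAMD4A, which was not called, turned to −0.0247 with library size only, and leaving out 1 library gave −0.0011 (without cGAMP replicate 2) to 0.1246. Over the 138 named genes, 2301 of 2345 values kept their direction and side of the threshold, 36 lost a call, 6 gained one and 2 reversed. Sizes moved more than calls: on log2(FPKM + 1) and log2(FPKM + 0.1) the log2 differences were 3.15 and 5.80 for NRCAM (8.73 on counts), 2.35 and 4.90 for SUSD5 (7.95), −1.10 and −3.50 for AJAP1 (−6.03) and −1.56 and −3.79 for TERT (−5.77), all still called. MHC class II had a median of −0.01 on FPKM. The call of HLA-DMA was lost on FPKM (adjusted p = 0.113 and 0.107).

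No pairing of libraries by replicate number was seen: same-numbered libraries of different groups had correlations of deviations from −0.113 to 0.067, and 2 of 12 libraries correlated best with their own number. With so few libraries, this could not exclude that same-numbered libraries were handled together. With the replicate block, 5236 genes were higher and 5712 lower, and 2338 and 2181 at 2-fold or more. With 3 libraries a group, genes of a few counts have wide intervals.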
